A study of Mus musculus with 12 samples.

Results

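Bone marrow-derived dendritic cells (BMDCs) made deficient in CTCF were compared with and without lipopolysaccharide (LPS), in 6 of the 12 RNA-seq libraries analysed here. All 6 came from C57BL/6 bone marrow of genotype CreER;CTCF fl/fl, grown in GM-CSF for 6 days with 4-hydroxytamoxifen added at the start of culture to delete the loxP-flanked Ctcf alleles. The 3 KO libraries were left without LPS and the 3 KOL libraries received LPS at 100 ng/ml for 3 h. The members were assigned by genotype and treatment label. The other 6 libraries, CreER cells with intact Ctcf without LPS (WT, 3 libraries) and with LPS (WTL, 3 libraries), were used to test where the response without CTCF differed. CreER is expressed from the Rosa26 locus and is not restricted to dendritic cells, and the study's methods describe selection of CD11c+ cells with beads, adult mice of both sexes as donors, and replicates that are biological. The sources did not state clearly whether the WT cultures also received 4-hydroxytamoxifen. Xist was at 12450 to 25378 normalized counts (expected counts scaled to a common library size) in the 12 libraries and 4 Y-linked genes had 1 count in all of them together, a female pattern in every library.

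LPS, a component of the outer membrane of Gram-negative bacteria, is handed by CD14 to the receptor TLR4 with its partner MD-2. The adaptor MyD88 then leads to NF-kB and AP-1 and to inflammatory cytokines, while the adaptor TRIF leads to IRF3, interferon-beta and, through the interferon receptor, to the interferon-stimulated genes. In dendritic cells these pathways drive maturation, in which costimulatory molecules and antigen-presenting molecules increase, CCR7 is acquired, and expression of uptake receptors is reduced. CTCF is a zinc-finger protein that, with the cohesin complex, holds chromatin loops and insulates neighboring domains.

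The response to LPS was large in the absence of CTCF. Of 14008 genes that passed the filter on low counts, 2113 were higher in KOL than in KO by more than 2-fold (15.1% of the genes tested) and 1819 were lower (13.0%), with edgeR's quasi-likelihood test and a Benjamini-Hochberg adjusted p under 0.05. The rises reached further than the falls. Of the genes that rose, 345 did so by more than 10-fold and 31 by more than 100-fold in the fit, compared with 53 and 4 of the genes that fell. The median log2 fold change over all genes tested was -0.02, and 10076 genes (71.9%) passed in neither direction. The 3 KO and 3 KOL libraries did not overlap for 2066 of the genes that rose and for 1799 of those that fell. Since these genes were chosen by a test on the same libraries, the lack of overlap is no separate support for the calls. Protein-coding genes made up 1689 of the rises and 1513 of the falls. Of the genes that rose, 172 had at most 3 counts in every KO library, and for these the fold is given below as a bound. The split of higher against lower was not the same with limma on log2(TPM + 1), an alternative that changes the unit, the test and the filter on low values together. TPM is the level of a transcript relative to its length and to the sum of its library. With it the median gene moved by -0.38 on the log2 scale, and 932 genes were higher and 2178 lower.

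Levels per unit of transcript length placed chemokines among the leading transcripts of KOL. In KO the most abundant protein-coding nuclear transcripts were Lyz2 (lysozyme) at 45976 TPM, Ftl1 (ferritin light chain) at 14056 TPM and Tmsb4x (thymosin beta-4, an actin-binding protein) at 10741 TPM, given as means of 3 libraries. In KOL the chemokine gene Ccl5 had rank 3 at 11504 TPM, after 1305 TPM in KO. The chemokine genes Ccl17 and Ccl22 followed. Ccl17 was at 7290.0 TPM, after 2640.1 TPM in KO, and Ccl22 at 5838 TPM, after 631 TPM in KO. Lyz2 was still the most abundant at 20669 TPM, and its log2 fold change of -0.70 did not reach 2-fold. In bulk RNA, fewer cells of a type and less RNA per cell cannot be told apart.

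The libraries were first checked against their labels. Ctcf (chromosome 8 from 105636568 to 105682922 of mm10 in the GENCODE M21 annotation) was at 569.7, 562 and 516 normalized counts in the KO libraries and 563, 530.0 and 526 in the KOL libraries. The WT libraries had 1051, 987 and 975 and the WTL libraries 886, 817 and 745, so every library of floxed cells lay below every library with intact Ctcf, although RNA of the gene remained. Ctcf did not pass the test with LPS in KO, with a log2 fold change of -0.02 and an approximate standard error (SE) of 0.08 (adjusted p = 0.8). Each SE given for a log2 value is the size of that value divided by the square root of the F statistic of its test. It is therefore approximate, and rough for genes at or near the floor. None of the 10 genes listed for CTCF and cohesin passed in either direction, and their median log2 fold change was -0.12. Total expected counts were 13544715 to 14584606 in KO and 14659973 to 15957342 in KOL.

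Dendritic cell markers were present in all 6 libraries, and 11 of 12 had at least 1 TPM in each of them. Itgax, which encodes CD11c, was at 598, 612 and 606 TPM in KO and 249.7, 281 and 221 TPM in KOL. Cd74, the invariant chain of MHC class II and the most abundant marker of the list, rose from 4129.6, 4377 and 4249 TPM to 9532, 6096 and 7315 TPM. The exception was Flt3, at 1.11, 0.63 and 0.79 TPM in KO. In the test on counts, 7 of the 12 markers rose and none fell. The calls of this and the following marker lists are read beside the 15.1% higher and 13.0% lower of all genes tested. Itgax, Itgam, Csf2ra, Csf2rb and Dcstamp were lower in TPM in every KOL library than in every KO library. Their log2 fold changes of counts, -0.73, -0.79, -0.75, -0.80 and -0.05, did not reach 2-fold. The 12 macrophage markers summed to 1067, 1090.3 and 1119 TPM in KO and 613, 697 and 628 TPM in KOL. Csf1r was the most abundant of them in KO, at 500.3, 514.8 and 516.9 TPM, and was at 85.0, 109.3 and 83.9 TPM in KOL. Cd68 was the most abundant in KOL. By counts, 4 of the macrophage markers rose and 3 fell. The 12 neutrophil markers summed to 271, 288 and 256 TPM in KO and 339.8, 396 and 382 TPM in KOL. S100a8 made up most of this sum. By counts, 5 of the 10 neutrophil markers tested rose and 1 fell. The granule genes Mpo (log2 fold change 2.10) and Camp (2.72) were among the rises, at no more than 2.74 and 1.92 TPM. The granule gene Elane was at most 0.11 TPM in any of the 6 libraries. The lists for T cells, B cells, NK cells, erythroid cells, mast cells and basophils, and stromal cells summed to at most 4.65 TPM in any of the 6 libraries, and Lum, Cma1 and Prss34 were at 0 in all 6. Eosinophil markers summed to 38, 39.9 and 45.7 TPM in KO and 18.3, 29.4 and 21.1 TPM in KOL, mostly from Siglecf and Ear1, with Epx at or near 0. The list for plasmacytoid dendritic cells summed to 8.11, 7.76 and 6.83 TPM in KO and 20.8, 25.1 and 18.6 TPM in KOL, mostly from Tcf4, which rose and which other dendritic cells also express, while Siglech was at or near 0. The part of such cells in the results below was not tested.

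KOL replicate 2 stood apart from the other KOL libraries. Among 7635 genes with at least 200 normalized counts on average, it differed from the mean of the other KOL libraries by more than 0.5 on the log2 scale in 678 genes, compared with 112 for KOL replicate 1, 130 for KOL replicate 3 and at most 16 for any KO library. Its departure followed transcript length. The median difference was -0.18 in the bin with the shortest transcripts and 0.25 in the bin with the longest, when genes were sorted into 5 equal bins by length. The KO libraries were close to each other, with a biological coefficient of variation, the relative spread beyond counting noise, of 2.62% in KO and 14.4% in KOL. No 2 libraries had identical values, and each pair of replicates differed beyond counting noise, by a chi-square of 1.69 to 1.9 for each degree of freedom among KO libraries and of 8.49 to 30.12 among KOL libraries. Transcript length also went with the response itself. From the shortest to the longest bin, the median log2 fold change in KO ran from 0.33 to -0.14 and in WT from 0.23 to -0.01. In KO, 1.4% of genes fell in the shortest bin and 12.8% in the longest, and 14.0% and 12.2% rose. The share of counts from ribosomal RNA was 0.579 to 0.641% in KO and 0.734 to 1.185% in KOL, and 5.165% in WTL replicate 2, the highest of the 12 libraries. The part of length and ribosomal RNA in the results was not tested beyond the alternatives given at the end. Without KOL replicate 2, 2207 genes were higher and 2057 lower.

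**Figure D1:**
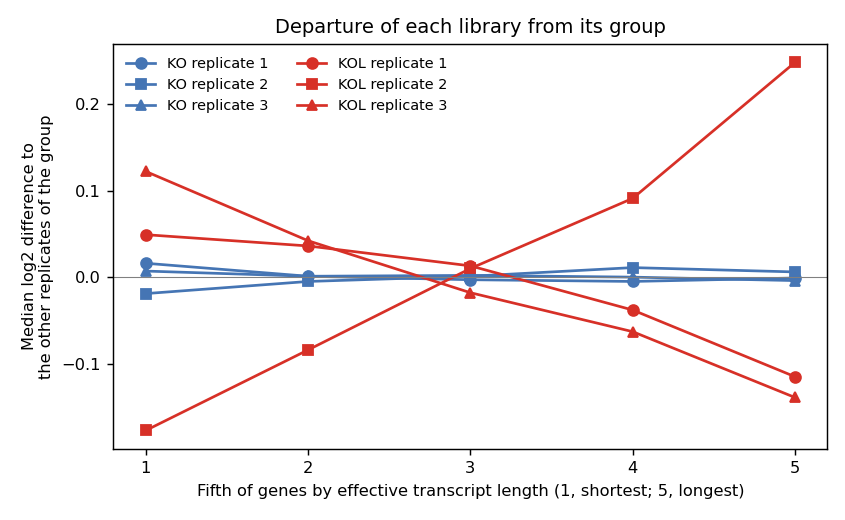
Departure of each library from the other replicates of its group by transcript length. The x axis gives 5 equal bins of 7635 genes from the shortest to the longest effective transcript length, and the y axis the median difference in log2 normalized count to the mean of the other replicates. KOL replicate 2 runs from -0.18 to 0.25, and the KO libraries stay within -0.02 and 0.02.

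Nearly all NF-kB genes rose, and genes of the LPS receptor and its adaptors moved in both directions. Of 21 receptor and adaptor genes, 4 rose and 2 fell, shares of 19.0% and 9.5% that are near the 15.1% and 13.0% of all genes, with a median log2 fold change of 0.28. Tlr4, the signaling receptor (chromosome 4 from 66827584 to 66930284), was at 789, 767 and 797 normalized counts in KO and 249, 389.6 and 272 in KOL. The groups did not overlap, with KOL replicate 2 the highest of the KOL libraries, and the log2 fold change was -1.37 (SE 0.17, adjusted p = 5.2e-06). Cd14, the coreceptor that loads LPS onto TLR4, rose, from 1647, 1534 and 1678 in KO to 9866, 11269.7 and 11168 in KOL (log2 fold change 2.73, SE 0.07). Myd88, the adaptor, rose from 1088, 1098 and 1104 to 2977, 3189 and 2987 (log2 fold change 1.48, SE 0.06). Map3k8 and Tab2, a kinase and a kinase-binding protein downstream of the receptor, were the other members that rose, at 1.62 and 1.16. Ticam2, the bridging adaptor of TRIF, fell (-1.03).

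Of the 11 genes for NF-kB subunits and IkB proteins, 10 rose (90.9%, beside 15.1% of all genes) and none fell, with a median of 1.35. Nfkbia, which encodes the inhibitor IkB-alpha and is itself an NF-kB target, was at 3496, 3276 and 3246 in KO and 17162, 13225 and 16079.6 in KOL. The lowest KOL library was replicate 2, and it was still above every KO library (log2 fold change 2.21, SE 0.11, adjusted p = 4.9e-10). Nfkb1, the p105 precursor of the p50 subunit, rose from 4205, 4316 and 4182 to 12281, 13287 and 11850.2 (log2 fold change 1.56, SE 0.06). The largest rise of the list was Nfkbiz, a nuclear IkB protein needed for a subset of secondary-response genes, at 3.69 (SE 0.08). Bcl3 (0.94), another nuclear IkB protein, did not reach 2-fold.

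Most early-response transcription factors rose. Of 22 genes, 13 rose (59.1%, beside 15.1% of all genes) and 2 fell (9.1%, beside 13.0%), with a median of 1.19. Fos, an AP-1 subunit, was highest among the rises at 3.06 (SE 0.10), from 204, 242 and 229.7 to 1916, 1807 and 1918 normalized counts. Egr1 rose from 274, 273 and 252 to 918, 549.9 and 759 (log2 fold change 1.48, SE 0.17), with KOL replicate 2 the lowest of its group and a value under 2-fold with limma on log2(TPM + 1) (0.93), whereas its relatives Egr2 and Egr3 fell, by 1.09 and 2.21 on the log2 scale. Atf3, a repressor induced by TLR signals, was at 3039, 2914 and 3029 in KO and 4864, 4170.0 and 5159 in KOL. Its groups did not overlap, and the log2 fold change of 0.66 (SE 0.08) stayed under 2-fold.

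Genes that restrain the response rose with it. Of 24 feedback inhibitors, 15 rose (62.5%, beside 15.1% of all genes) and 2 fell (8.3%, beside 13.0%), with a median of 1.56. Tnfaip3, which encodes the ubiquitin-editing enzyme A20, was at 2459, 2278 and 2229 in KO and 13613, 14967 and 13228 in KOL (log2 fold change 2.59, SE 0.07, adjusted p = 5.2e-13). Socs3, an inhibitor of cytokine receptor signaling, rose from 435, 408 and 388 to 3919.6, 3929 and 4019 (log2 fold change 3.27, SE 0.07). The 3 KOL values of Socs3 were closer to each other than those of Tnfaip3. Dusp2, a MAP kinase phosphatase, had the largest rise of the list (3.76, SE 0.18), and Zfp36l2, a protein that promotes decay of AU-rich mRNAs, the largest fall (-1.47, SE 0.09), opposite to its relative Zfp36 (1.40).

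Cytokines, chemokines and interferon-stimulated genes had the highest medians of the 33 lists. Of 24 proinflammatory and regulatory cytokines, 22 rose (91.7%, beside 15.1% of all genes) and 1 fell (4.2%, beside 13.0%). The median log2 fold change was 4.29, and 4.08 with genes at the floor in KO set to their bound. Il6 (chromosome 5 from 30013114 to 30019981) was at 16.1, 14.4 and 5.56 normalized counts in the KO libraries and 8106, 8338 and 10628 in the KOL libraries. Its log2 fold change of 9.53 (SE 0.24, adjusted p = 2.5e-13) was the largest among genes averaging 100 normalized counts or more, and its KO values rest on few counts. Tnf, which was already expressed without LPS, rose from 697, 721 and 663 to 11244, 13959.5 and 11802 (log2 fold change 4.15, SE 0.09). Il1b, whose protein is processed by the inflammasome, was at 3983, 3912 and 3741 in KO and 33401, 41067 and 41165 in KOL. All KOL libraries were far above all KO libraries for these 3 cytokines, with a log2 fold change of 3.31 (SE 0.11) for Il1b.

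Subunit genes of the interleukin-12 family rose. Il12b, the p40 chain shared by IL-12 and IL-23, rose from 16.1, 32.6 and 25.9 to 3949, 5438 and 4251 (log2 fold change 7.51, SE 0.19). Il23a, the p19 chain of IL-23, rose from 12.6, 12.5 and 16.7 to 585, 429 and 552 (log2 fold change 5.22, SE 0.20). Il12a, the p35 chain of IL-12, had at most 3 counts in each KO library and 90.3, 95.9 and 90.8 normalized counts in KOL, which is at least 33.2-fold higher. Il27 and Ebi3, the chains of IL-27, had log2 fold changes of 7.36 (SE 0.15) and 2.01. Il10, an inhibitory cytokine, was likewise at the floor in KO and at 73.1, 66.7 and 77.9 normalized counts in KOL, at least 26.1-fold higher. Csf3, Il33 and Csf2 were also at the floor in KO, and rose at least 23-fold, 34.3-fold and 9.2-fold. The cytokine that fell was Il16, a chemoattractant for CD4+ cells (-2.79, SE 0.19), and Tgfb1 (-0.57) did not reach 2-fold.

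Of 20 chemokine genes listed, 18 were tested, 15 rose (83.3%, beside 15.1% of all genes) and none fell, with a median of 4.52. Neutrophil attractants were among the largest rises of the list. Cxcl1 (chromosome 5 from 90891241 to 90893115) was at 114, 113 and 108 in KO and 8849, 8072 and 10706 in KOL (log2 fold change 6.36, SE 0.17, adjusted p = 3.3e-13). Cxcl2, Cxcl3 and Cxcl5 of the same family had log2 fold changes of 4.57, 5.07 and 5.21. Cxcl10, a ligand of CXCR3 that attracts activated T cells and NK cells, rose as well. It went from 539, 514 and 521 to 19435, 20439 and 20417 (log2 fold change 5.26, SE 0.08), and Cxcl11, which GENCODE annotates as a polymorphic pseudogene, and which was at the floor in KO, had RNA at least 122-fold higher at 309, 389.6 and 322. Ccl3, which attracts monocytes and T cells, rose from 672, 692 and 648 to 15280.5, 15091 and 16779 (log2 fold change 4.55, SE 0.07), and Ccl5 from 4611, 4617 and 4143 to 55593, 52121 and 54515 (log2 fold change 3.60, SE 0.09). The members that did not pass were Cxcl16 (0.96), Ccl24 (0.65) and Ccl6 (0.13), the last at 5794 TPM in KO and thus abundant without LPS.

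**Figure D2:**
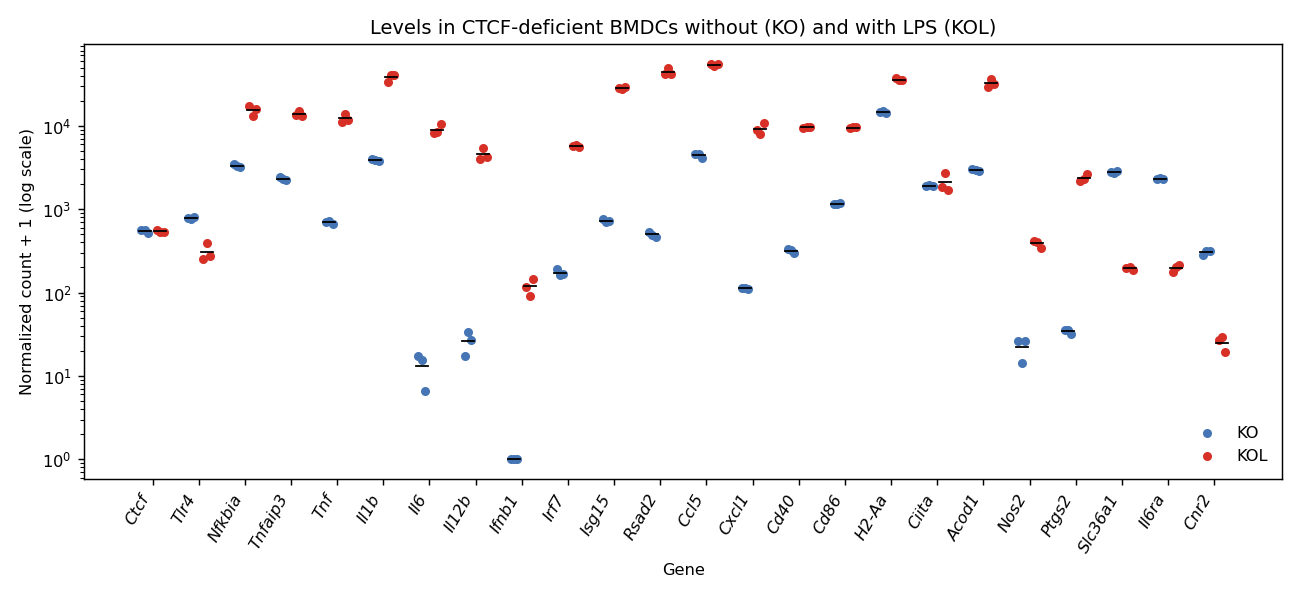
Normalized counts of 24 genes in the 3 KO and 3 KOL libraries. The y axis is the normalized count plus 1 on a log scale, points are libraries and bars are group means. The KO and KOL points do not overlap, Ctcf and Ciita being the exceptions, and Ifnb1 is at 0 counts in all KO libraries and at 117, 91.3 and 145 in KOL.

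Interferon-beta, its signal transducers and every interferon-stimulated gene tested rose in KO. Ifnb1, which encodes interferon-beta (chromosome 4 from 88522025 to 88522774), had 0 counts in each KO library and 117, 91.3 and 145 normalized counts in the KOL libraries, at least 42.4-fold higher. Irf7, the factor that amplifies interferon production, rose from 188, 161 and 167 to 5685, 5898 and 5625 (log2 fold change 5.06, SE 0.08, adjusted p = 5.1e-15). In all, 8 of 14 genes for interferon-beta, IRF and STAT proteins and the interferon receptor rose (57.1%, beside 15.1% of all genes) and none fell. Stat2 and Irf9, which carry the signal of the interferon receptor to the nucleus, were at 3.11 and 2.20. Irf3 (-0.23), which is activated by phosphorylation, and the receptor genes Ifnar1 (-0.14) and Ifnar2 (0.41) did not reach 2-fold.

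Every one of the 47 interferon-stimulated genes tested, of 48 listed, rose, with a median log2 fold change of 4.16 and a range from 1.78 (Samd9l) to 8.24 (Ifi205). Isg15, a ubiquitin-like modifier, went from 754, 710.5 and 717 to 28169, 27446 and 29307 (log2 fold change 5.28, SE 0.09). Rsad2, which encodes the antiviral enzyme viperin (chromosome 12 from 26442746 to 26456452), went from 539, 493 and 464 to 42469, 48789 and 42023 (log2 fold change 6.48, SE 0.12). Ifit1, an RNA cap-binding inhibitor of translation, went from 763, 695 and 704 to 26659, 33511 and 29791 (log2 fold change 5.38, SE 0.14). The KOL libraries were far above the KO libraries for these 3 genes and spread little among themselves. Cytosolic sensors rose along with effectors, among them Ifih1 (3.33), Ddx58 (3.27) and Zbp1 (3.94), as did the GTPases Mx1 (3.93), Gbp5 (5.21) and Igtp (4.17). Several belong to families of near-identical genes, including Ifi205 and Ifi204, and Ifit3 and Ifit3b, and their separate values are uncertain because RSEM divides shared reads among copies.

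Matches to the motif of interferon-activated factors were frequent before these genes. In the RefSeq promoter table (GRCm38.p6), windows were matched for 10110 of 14001 symbols tested. The core of the interferon-stimulated response element, GAAANNGAAA on either strand, was present in the 250 bases before the start of 17 of 35 matched interferon-stimulated genes (48.6%), beside 2.9% of all genes tested and 3.1% of all promoters in the table. Among genes that rose it was present in 6.4%, and among genes that fell in 1.9%. An AP-1 motif, TGANTCA, was found before 7.3% of genes that rose and 4.2% of those that fell, beside 4.3% of all genes tested and 6.9% of the table. A loose kappa-B-like motif, GGGNNNNNCC, was common everywhere, at 60.4%, 60.4%, 61.2% and 45.3% in the same order. These are matches of letters and not measured binding. The 150 bases before the start of 3 interferon-stimulated genes and of 2 cytokine genes with large rises are shown on the strand of the gene, 5′ to 3′, with the interferon-stimulated response element core in capitals for Isg15, Ifit1 and Rsad2 and kappa-B-like matches in capitals for Cxcl1 and Il6.
Isg15 (chr4:156200819-156200968, minus strand): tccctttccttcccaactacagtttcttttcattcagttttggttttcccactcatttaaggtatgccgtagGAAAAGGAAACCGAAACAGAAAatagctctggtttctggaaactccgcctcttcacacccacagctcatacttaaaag
Ifit1 (chr19:34640739-34640888, plus strand): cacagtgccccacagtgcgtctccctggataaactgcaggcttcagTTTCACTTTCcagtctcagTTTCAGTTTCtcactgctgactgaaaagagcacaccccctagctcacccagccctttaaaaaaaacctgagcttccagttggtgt
Rsad2 (chr12:26456453-26456602, minus strand): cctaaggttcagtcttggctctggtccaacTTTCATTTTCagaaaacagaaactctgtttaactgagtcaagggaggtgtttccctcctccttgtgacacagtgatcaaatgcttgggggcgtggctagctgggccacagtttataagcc
Cxcl1 (chr5:90891095-90891244, plus strand): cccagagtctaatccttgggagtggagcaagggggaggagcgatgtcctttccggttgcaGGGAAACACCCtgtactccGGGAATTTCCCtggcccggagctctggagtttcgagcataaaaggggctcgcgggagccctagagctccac
Il6 (chr5:30012964-30013113, plus strand): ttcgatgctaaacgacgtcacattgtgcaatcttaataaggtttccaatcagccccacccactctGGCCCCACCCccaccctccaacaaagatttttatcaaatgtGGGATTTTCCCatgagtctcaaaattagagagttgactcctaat
The Isg15 stretch held 3 overlapping matches within the capitals, Ifit1 held 2 separate matches on the opposite strand, and Rsad2 held 1.

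Of 14 costimulation and checkpoint genes, 9 rose (64.3%, beside 15.1% of all genes) and 1 fell (7.1%, beside 13.0%), with a median of 2.71. Cd40, the receptor for T cell help, was at 336, 321 and 295 in KO and 9444, 9642 and 9707 in KOL (log2 fold change 4.92, SE 0.08). Cd86, a ligand of CD28, rose from 1160.1, 1166 and 1181 to 9361, 9689 and 9576 (log2 fold change 3.03, SE 0.07). All 3 KOL libraries were above all 3 KO libraries for both genes. Cd70 and Tnfsf9, ligands for costimulatory receptors of T cells, were at 5.11 and 4.20, and the checkpoint ligand Cd274 at 1.86. Vsir, an inhibitory checkpoint molecule, fell (-2.51, SE 0.08). Ccr7, the receptor that guides dendritic cells to lymph nodes, rose from 3970.1, 3846 and 3630.4 to 19187, 19345 and 17334 (log2 fold change 2.29, SE 0.10), and Ccr2, a receptor of monocytic cells, fell (-1.58, SE 0.14). Cx3cr1 was low in both groups, at 49.3, 45.1 and 63.9 and 43, 53.8 and 49.1, with overlapping values (log2 fold change -0.12, SE 0.16, adjusted p = 0.52).

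Of 11 genes for MHC class II presentation, 4 rose (36.4%, beside 15.1% of all genes), all of them chains of the class II complex, and 1 fell (9.1%, beside 13.0%). H2-Aa went from 14851, 14927 and 14442 to 37053, 35078 and 35619 (log2 fold change 1.28, SE 0.08), and H2-Ab1, H2-Eb1 and Cd74 were at 1.37, 1.40 and 1.32. On the TPM scale, where the median gene fell, H2-Aa and H2-Eb1 did not reach 2-fold (0.833 and 0.995 with limma). Ciita, the transactivator of the class II genes, was at 1889, 1936 and 1906 in KO and 1870.0, 2705 and 1704 in KOL. KOL replicate 2 lay above the KO libraries and the other KOL libraries below them, and the log2 fold change of 0.13 (SE 0.13, adjusted p = 0.4) changed sign without that library. March1, a ligase that removes class II molecules from the surface, was the member of the list that fell (-2.14, SE 0.14). Of 13 genes for MHC class I and peptide processing, 10 rose (76.9%, beside 15.1% of all genes) and none fell (beside 13.0%). The rises included the transporter gene Tap1 (2.03), the immunoproteasome gene Psmb9 (1.46) and the proteasome activator gene Psme2 (2.32, SE 0.10).

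Acod1, Nos2 and Ptgs2, which make inflammatory metabolites, rose. Of 12 genes for itaconate, nitric oxide and arginine, 5 rose (41.7%, beside 15.1% of all genes), none fell (beside 13.0%), and the rest did not pass. Acod1, which makes itaconate from a citric acid cycle intermediate, rose from 3036, 2917 and 2903 to 28887, 36263 and 31955 (log2 fold change 3.45, SE 0.11, adjusted p = 4.2e-12). Nos2, the inducible nitric oxide synthase, rose from 25.1, 13.4 and 25 to 413, 407 and 343 (log2 fold change 4.18, SE 0.17). Slc7a2, a carrier of its substrate arginine, was at 4.33 (SE 0.18). Ptgs2, the inducible prostaglandin synthase, rose from 35, 34.6 and 30.6 to 2179.7, 2301 and 2632 (log2 fold change 6.15, SE 0.16), while the constitutive Ptgs1 was at -0.38. In the list of 15 genes for prostaglandins and leukotrienes, 4 rose (26.7%, beside 15.1% of all genes) and 2 fell (13.3%, near the 13.0% of all genes), the latter being Tbxas1 (-1.16), which makes thromboxane, and the receptor gene Ptger2 (-1.81).

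Of 21 genes for glycolysis and lactate export, 4 rose (Pfkfb3, Hk2, Hk3 and Slc2a6, at 1.44, 1.31, 1.09 and 1.03) and 1 fell (Slc16a3, a lactate exporter, -1.32, SE 0.08), with a median of 0.15. Pfkfb3 did not pass with limma on TPM, and no limma value on TPM is given here for the other rises. That 19.0% rose and 4.8% fell is set beside 15.1% and 13.0% of all genes. Among 21 citric acid cycle genes none rose (beside 15.1% of all genes) and 1 fell (4.8%, beside 13.0%). The fall was Idh1, the cytosolic isocitrate dehydrogenase (-1.60, SE 0.06), and the median of the list was -0.34. In the 22 tested genes of sterol synthesis and uptake, 3 rose (13.6%, beside 15.1%) and 5 fell (22.7%, beside 13.0%). Ch25h, whose product 25-hydroxycholesterol is an antiviral oxysterol, rose (5.66, SE 0.13), and the late synthesis genes Dhcr7 (-2.55, SE 0.13), Sc5d (-1.22) and Lss (-1.20) fell.

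The largest falls among genes averaging 100 normalized counts or more included receptors, a transporter and a lipid enzyme. Ntn4, a secreted netrin, was at 271, 235 and 272 in KO and 11.8, 10.5 and 17.1 in KOL (log2 fold change -4.28, SE 0.23). Slc36a1, a lysosomal amino acid transporter, fell from 2765, 2693 and 2850.4 to 199, 201 and 187 (log2 fold change -3.82, SE 0.08, adjusted p = 3.7e-14). Il6ra, the receptor for IL-6, fell from 2315, 2350.4 and 2316 to 176, 200.1 and 215 (log2 fold change -3.56, SE 0.08). The receptor of the induced cytokine thus fell while Il6 itself rose, and the KO and KOL libraries did not overlap for these 3 genes. The remainder of the 10 largest falls above that limit were Cnr2, a cannabinoid receptor (-3.66), Dna2, a nuclease of DNA replication and repair (-3.53), Lpin1, a phosphatidate phosphatase (-3.44), Fam117a (-3.38), Nfam1, a receptor with a signaling motif (-3.33), Otulinl (-3.25) and Adora3, an adenosine receptor (-3.25). Below the limit, genes of few counts had larger fitted values. The 10 largest rises above it were, beside Il6, Il12b, Il27, Cxcl1, Cxcl11, Rsad2 and Ifi205, the interferon-inducible GTPase gene Tgtp1, which has a near-identical copy (9.35, SE 0.25), the endothelin gene Edn1 (7.51, SE 0.20) and the collagen gene Col5a3 (6.59, SE 0.27).

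Of 27 homeostatic receptors of myeloid cells, 6 fell (22.2%, beside 13.0% of all genes) and 3 rose (11.1%, beside 15.1%), with a median of -0.73. Csf1r, the receptor for M-CSF, fell from 511 to 92.7 TPM (log2 fold change of counts -2.04), while the receptor chains for GM-CSF, Csf2ra (-0.75) and Csf2rb (-0.80), did not reach 2-fold. Mrc1, the mannose receptor, was at -0.99 and Trem1 rose (1.13, SE 0.09), a call that was lost with limma on log2(TPM + 1) (0.62). Among 20 lineage transcription factors, 5 rose and 5 fell, 25.0% each way. Irf4 (2.76) and Zbtb46 (1.71), factors of conventional dendritic cells, rose, and Cebpa (-2.33) and Klf4 (-1.18), factors of monocytes and other myeloid cells, fell. Spi1, which encodes PU.1, was at -0.36. Of 15 clock genes 5 fell (33.3%, beside 13.0% of all genes), among them Tef (-1.18, SE 0.07) and Per3 (-1.54). A further 2 rose (13.3%, near the 15.1% of all genes).

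Many genes of dividing cells fell. Of 20 mitosis genes 13 fell (65.0%, beside 13.0% of all genes) and none rose, with a median of -1.27, and of 22 DNA replication genes 8 fell (36.4%) and 1 rose (4.5%, beside 15.1%), with a median of -0.79. Cenpf, a kinetochore protein, went from 608, 569 and 557 to 71, 121 and 85.4 (log2 fold change -2.65, SE 0.21), and Mcm2, a subunit of the replicative helicase, from 664, 599 and 645 to 187, 195 and 199.7 (log2 fold change -1.71, SE 0.07). The proliferation marker Mki67 (-0.36), Top2a (-0.52) and Cdk1 (-0.50) did not reach 2-fold. Of 15 genes for cell cycle entry and inhibition, 7 rose (46.7%, beside 15.1% of all genes) and 1 fell (6.7%, beside 13.0%). The cyclin gene Ccnd2 (4.42, SE 0.07) and the inhibitor gene Cdkn1a (1.98) were among the rises. The fall was the inhibitor gene Cdkn2c (-1.23, SE 0.14). Leaving out KOL replicate 2, 14 mitosis genes and 9 DNA replication genes fell.

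Of 16 regulators of survival and death, 10 rose (62.5%, beside 15.1% of all genes) and none fell (beside 13.0%). The largest rise was in Bcl2l1, which encodes the anti-apoptotic BCL-XL (4.05, SE 0.14). Genes that promote death were among the rises, namely Fas (1.15), Bid (1.26) and Bcl2l11 (1.28). The Bcl2a1 copies Bcl2a1a, Bcl2a1b and Bcl2a1d also rose (2.36, 2.40 and 2.60), and reads shared among these copies make their separate values uncertain. Of 14 inflammasome genes 4 rose (28.6%, beside 15.1% of all genes) and none fell, with Nlrp3, the sensor, at 2.69 (SE 0.12). Of 17 matrix protease and inhibitor genes 8 rose (47.1%, beside 15.1%) and none fell, with the serpin gene Serpinb2 at 4.94 (SE 0.19). Of 13 complement genes 4 rose (30.8%, beside 15.1%), with the receptor gene C5ar1 at 2.49 (SE 0.08). Only Cd93 fell (-1.36, SE 0.12), a share of 7.7% beside 13.0%. The shares of the lists that follow are read beside the 15.1% higher and 13.0% lower of all genes, and the rises in the unfolded protein (18.8%), Toll-like receptor (20.0%) and integrin (21.4%) lists were near the former. The Nrf2 list had 4 rises among 15 genes (26.7%), led by Mt2 (1.99, SE 0.08). The list for unfolded proteins and ATF4 had 3 rises and 3 falls among 16 (18.8% each), led by Ppp1r15a (2.05, SE 0.12). Of 10 Toll-like receptor genes 2 rose, with Tlr3, the sensor of double-stranded RNA, at 2.70 (SE 0.17), and 2 fell (20.0% each). Chemokine receptors had 3 rises and 2 falls among 10 (30.0% and 20.0%), and integrin and adhesion genes 3 rises and no falls among 14, with Itgav at 1.87 (SE 0.09). For cholesterol efflux and lipid uptake, 3 of 14 genes fell (21.4%) and none rose, Scarb1 (-1.57, SE 0.09) and Abcg1 (-1.34) being among the falls.

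**Figure D3:**
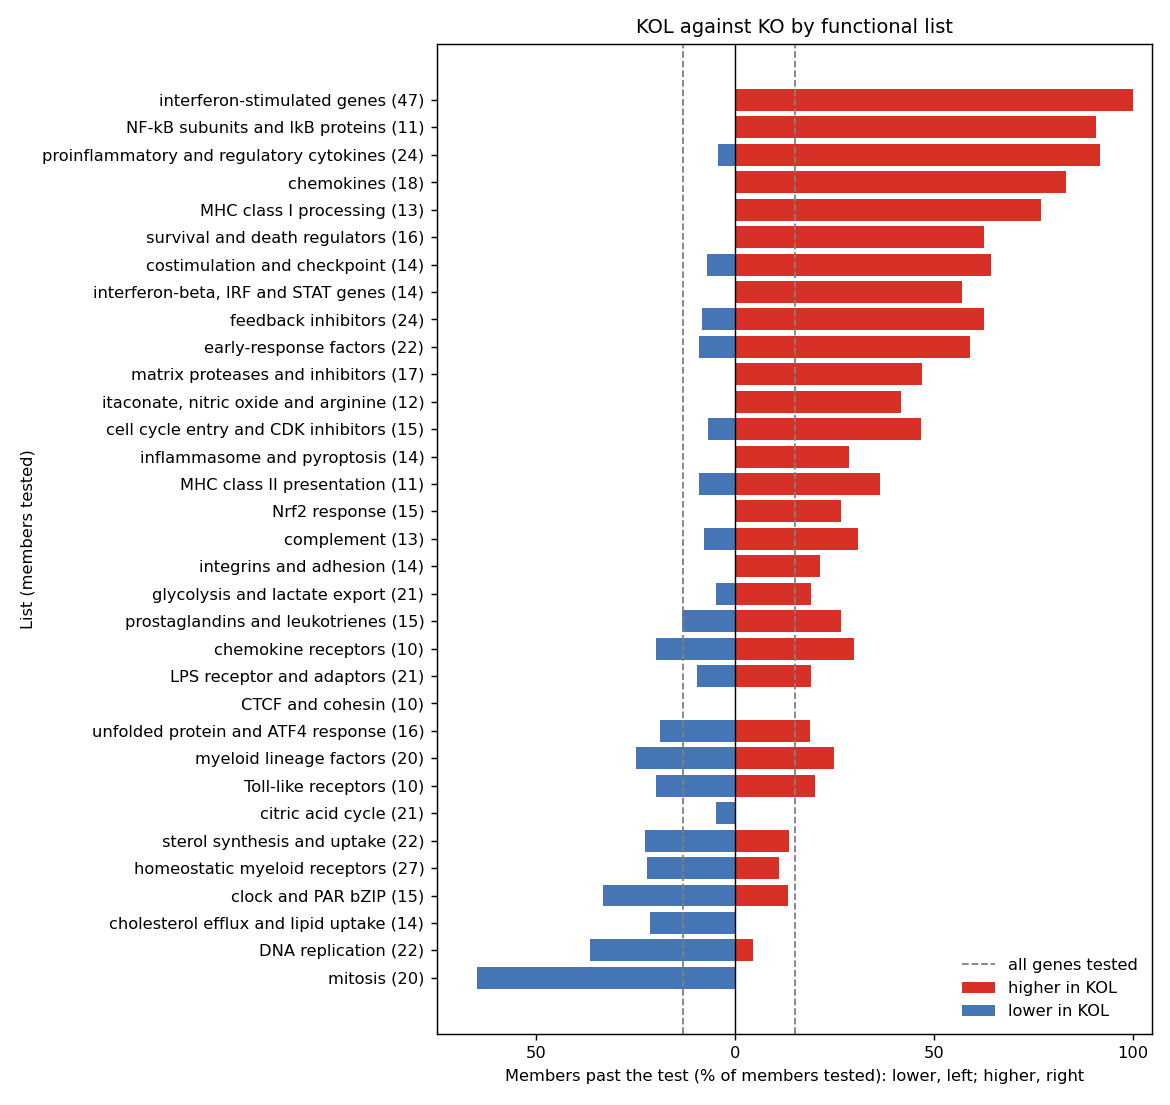
Share of each functional list that was higher (right, red) or lower (left, blue) in KOL than in KO. The x axis is the percentage of the members tested, whose number stands in brackets after the name of the list, and dashed lines mark the shares of all genes tested, 15.1% higher and 13.0% lower. All interferon-stimulated genes tested lie on the right, and 65.0% of mitosis genes lie on the left.

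Most of the response was shared with cells that had CTCF. In WTL against WT, 1766 genes rose (12.6% of genes tested) and 1400 fell (9.99%). The KO and WT responses share no library. Of the rises, 1411 genes passed in both, which is 66.8% of those in KO and 79.9% of those in WT. Of the falls, 982 passed in both, 54.0% of those in KO and 70.1% of those in WT. A gene that passed in 1 genotype alone need not differ between them, so the difference of the responses was tested itself, in an interaction term that uses all 12 libraries and thus shares libraries with both responses. With an adjusted p under 0.05 and no fold cutoff, it was above 0 for 1218 genes (8.70% of genes tested) and below 0 for 1225 (8.75%). Counts of such genes within a response depend on which genotype chose the list, since a list chosen in KO tilts toward larger responses in KO. Among the genes that rose in KO, the rise passed as larger in KO for 543 and as smaller for 89, whereas among those that rose in WT it was larger in KO for 224 and smaller for 248. Among the genes that fell in KO, the fall was deeper in KO for 382 and shallower for 23, whereas among those that fell in WT it was deeper in KO for 125 and shallower for 160. No general shift of the response is read from these counts. For 70.1% of the rises and 77.7% of the falls in KO, the difference passed in neither direction, which does not show equal responses. The numbers of differences over all genes tested moved with the libraries. Without KOL replicate 2 they were 1756 above and 2013 below 0, and without 1 of the WT replicates those below 0 were 671 to 688.

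**Figure D4:**
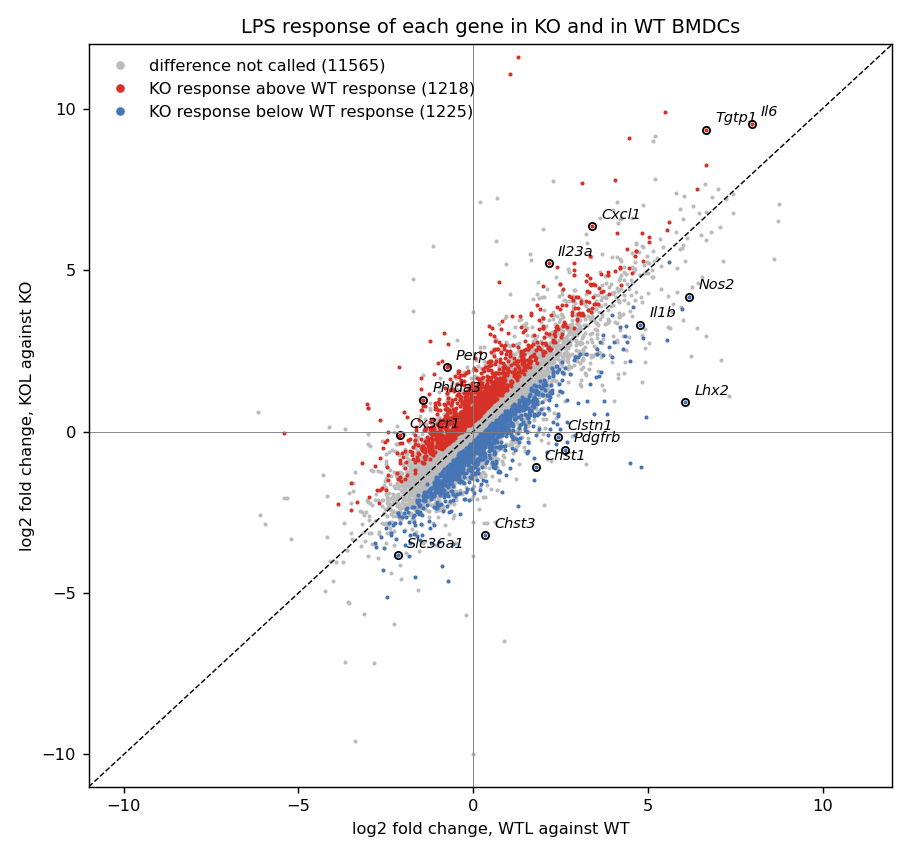
Log2 fold change with LPS of each of 14008 genes in KO (y axis) and in WT (x axis). Red and blue points passed the test of the difference above (1218 genes) and below 0 (1225 genes), and the dashed line marks equal responses. Il23a, Cxcl1, Tgtp1, Perp and Phlda3 lie above the line and Lhx2, Chst3, Pdgfrb, Chst1 and Clstn1 below it.

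For Tnf, Il6, Il12b and Ptgs2 the fold was larger in KO, and both the level without LPS and the level with LPS were lower there than in WT. Tnf without LPS was at 694 ± 29 (SD, n = 3) in KO and 2459 ± 4.07 in WT, and with LPS at 12335 ± 1434 in KOL and 26399 ± 1805 in WTL, a difference of responses of 0.73 on the log2 scale (SE 0.12, adjusted p = 8.3e-04). Il6 was at 12 ± 5.68 and 70.4 ± 9.95 without LPS and at 9024 ± 1394 and 17727 ± 3016 with it (difference 1.56, SE 0.34, adjusted p = 0.0062), a difference that did not pass with limma on TPM. Il12b was at 24.9 ± 8.29 and 113 ± 6.1 without LPS and at 4546 ± 787 and 9562 ± 832 with it (difference 1.11, SE 0.25), and did not pass with limma on log2(TPM + 1). Ptgs2 was at 33.4 ± 2.44 and 184 ± 6.59, then 2371 ± 234 and 5200.3 ± 999 (difference 1.32, SE 0.21), likewise not called with limma on log2(TPM + 1). Il23a was at 13.9 ± 2.4 in KO, 128 ± 23.2 in WT, 522 ± 82 in KOL and 571 ± 50.9 in WTL, with overlapping libraries of KOL and WTL and a difference of responses of 3.06 (SE 0.26, adjusted p = 5.1e-06). Cxcl1 differed in that KOL, at 9209 ± 1353, was above WTL, at 5850.0 ± 1051, from a lower start of 112 ± 3.04 against 554 ± 64.5 (difference 2.96, SE 0.20, adjusted p = 6.2e-07). These levels are set side by side, and no test of KO against WT or of KOL against WTL is given.

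Other induced genes responded less in KO. Nos2 started at 21.2 ± 6.71 in KO and 21.9 ± 6.05 in WT and reached 388 ± 39 in KOL and 1623 ± 106 in WTL (difference -2.02, SE 0.29, adjusted p = 3.5e-04). Il1b started higher in KO, at 3878 ± 124 against 1583 ± 7.82, and reached 38544 ± 4454 and 43634 ± 5711 (difference -1.47, SE 0.14, adjusted p = 1.0e-05). Socs3 showed a difference of -1.11 (SE 0.10). Some genes passed with LPS in WT and not in KO. Cx3cr1 fell with LPS in WT, from 349 ± 24.9 to 81.9 ± 1.73, and was at 52.8 ± 9.86 in KO and 48.7 ± 5.42 in KOL (difference 1.97, SE 0.20). Lhx2, a LIM homeobox factor, was at the floor in WT and rose there at least 25.5-fold to 67 ± 9.74 in WTL, and in KO was at 239 ± 11.9 without and 449 ± 67.4 with LPS. The rise of Lhx2 in KO was just under 2-fold (0.91) and passed without KOL replicate 2 (1.01). Its fitted difference of -5.17 (SE 0.46) depends on the prior count of the fit. Chst3, a carbohydrate sulfotransferase, fell in KO from 1515 ± 54 to 165 ± 36.1 and was at 26.8 ± 3.02 in WT and 34 ± 11 in WTL (difference -3.55, SE 0.30). Pdgfrb, a growth factor receptor, and Clstn1 passed as rises in WT (2.62 and 2.43) and not in KO (-0.56 and -0.18), and Chst1, a sulfotransferase, rose in WT (1.79) and fell in KO (-1.11). Each of these 5 genes had a higher level without LPS in KO than in WT. On the other side, Perp and Phlda3, both targets of p53, had a log2 fold change of 1.99 and 0.99 in KO and -0.76 and -1.43 in WT, of which Perp passed as a rise in KO and Phlda3 as a fall in WT, and Phlda3 also as a rise in KO without KOL replicate 2 (1.17) (differences 2.75 and 2.42). By list, the difference passed above 0 for 24 and below 0 for 1 of the 47 interferon-stimulated genes, beside 8.70% and 8.75% of all genes. The mean level of these 47 genes was lower in KO than in WT for 43 and lower in KOL than in WTL for 37. For the chemokines the difference passed above 0 for 10 and below 0 for 2, and the mean level was lower in KO than in WT for 11 of 18 and lower in KOL than in WTL for 7. In mitosis it passed above 0 for 1 and below 0 for 10 of 20 genes. Lists with more genes above 0 than below also included cytokines (9 above and 2 below of 24), survival and death regulators (9 and 2 of 16), early-response factors (8 and 2 of 22), feedback inhibitors (9 and 5 of 24), costimulation and checkpoint genes (6 and 3 of 14) and interferon-beta, IRF and STAT genes (7 and 4 of 14). Lists with more genes below 0 than above also included integrins and adhesion (1 above and 8 below of 14), the citric acid cycle (0 and 7 of 21), sterol synthesis and uptake (3 and 7 of 22), glycolysis (1 and 6 of 21), DNA replication (2 and 8 of 22), homeostatic receptors (3 and 7 of 27) and the LPS receptor and adaptors (1 and 5 of 21).

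**Figure D5:**
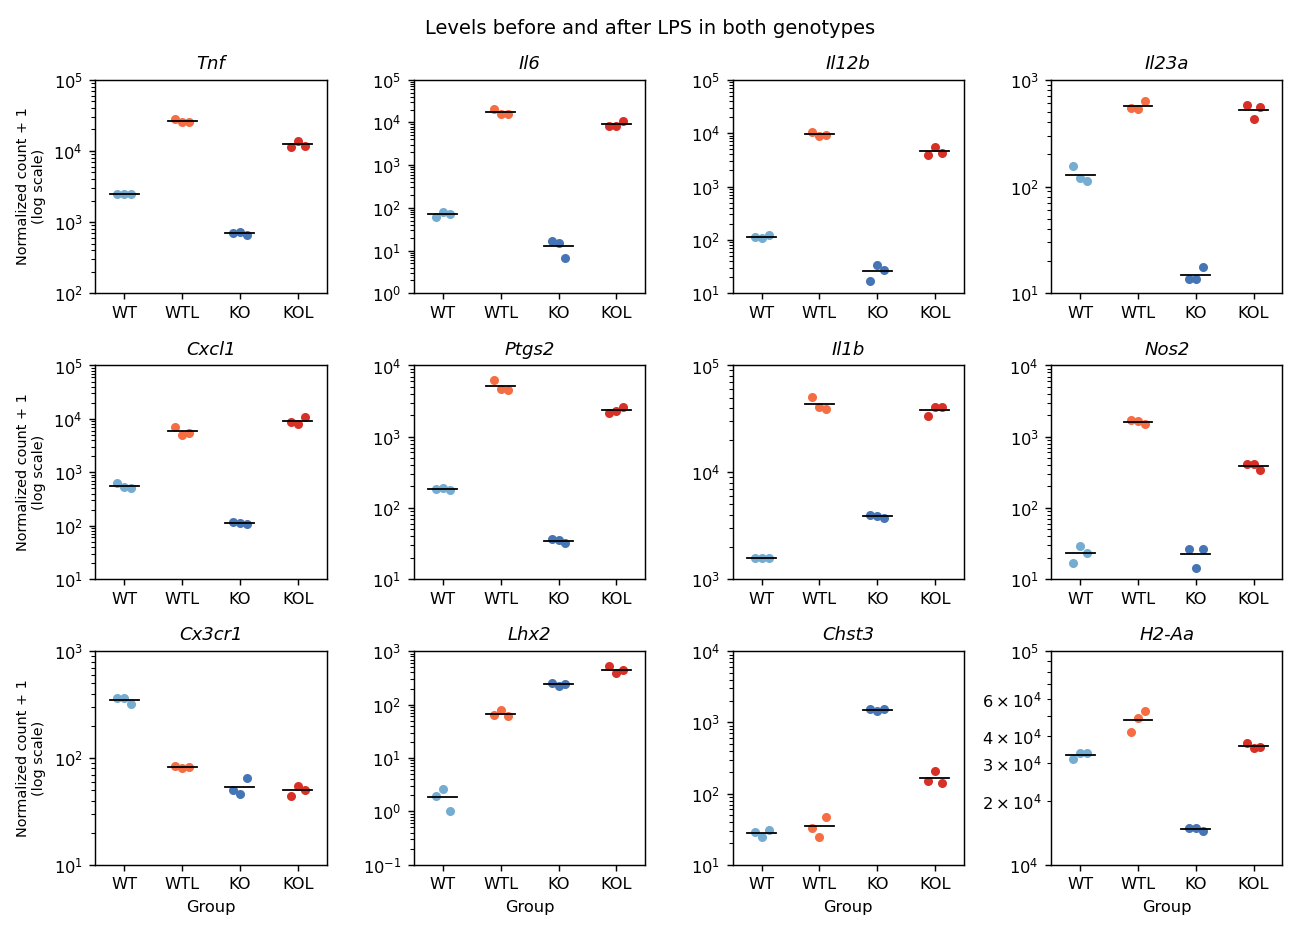
Normalized counts plus 1 (log scale) of 12 genes in WT, WTL, KO and KOL. Points are libraries and bars are group means of 3. Tnf, Il6, Il12b, Il23a, Cxcl1 and Ptgs2 start lower in KO than in WT, Nos2 reaches 388 ± 39 in KOL and 1623 ± 106 in WTL, and Cx3cr1 lies between 43 and 63.9 in the KO and KOL libraries.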

How the data were processed

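The authors trimmed the reads, aligned them to mm10 with STAR and deposited, for each of the 12 libraries, RSEM expected counts, TPM values and effective transcript lengths per gene of a GENCODE annotation, with replicates kept apart. The labels' processing notes name STAR 2.5.1, the labels and the methods differ on whether ribosomal RNA was depleted or poly(A) RNA selected, and although the methods describe stranded libraries, the strand setting used for counting was not given in the sources used here, so overlapping genes such as Il27 and its neighbor, and antisense genes, are uncertain. No column of other samples was present.

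Expected counts of 12769773 to 16586334 per library were rounded to whole numbers. Of the deposited effective lengths, in bases, only the means over libraries were used. Genes passing edgeR's filterByExpr entered edgeR 4.0.16 (R 4.3.3) with TMM scaling, and 1 quasi-likelihood model over the 12 libraries gave KOL against KO, WTL against WT and their difference, since the groups then share 1 estimate of the spread. Calls used a Benjamini-Hochberg adjusted p under 0.05 and, except for the difference, a fold above 2. The deposited TPM values gave levels and an alternative with limma 3.58.1 at a pseudocount of 1 or 0.1. DESeq2 1.42.0 was another alternative. A few members of the lists are counted but not reported here by name. Where no library of a group exceeded 3 counts of a gene, the gene was at the floor there, and its fold is a bound against 3 counts per library, so bounds cover counting error only. Gene names and positions came from GENCODE M21 for 55154 of 55335 identifiers.

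Named genes were 36 chosen genes, the 10 largest rises and falls and the 5 largest positive and negative differences among genes averaging 100 normalized counts or more and carrying an informative symbol, the largest changes of each list, and members needed to account for a list's count. The groups compared, the 33 gene lists with 590 symbols, the markers and the named genes were chosen with earlier results of these data known. The correction for transcript length was added after seeing the data. With 3 samples a group an exact permutation test of 1 gene cannot go below p = 0.1. Same-numbered samples had correlations of their deviations from -0.15 to 0.12, so the numbers were not taken to pair them.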

Additional observations from a re-analysis of the deposited data

Results flagged for a closer look

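The LPS responses of the 2 genotypes were compared by the interaction term of the edgeR quasi-likelihood fit over 12 libraries, and the values here are the log2 response in KO minus that in WT for genes that passed it at an adjusted p under 0.05. In all, 1218 genes passed above 0 and 1225 below 0. Groups of 3 libraries are too small for a test of single outlying samples.

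Among receptor and feedback genes the difference was 0.75 for Cd14 and -1.11 for Socs3. Among cytokines it was 0.73 for Tnf, 1.56 for Il6, 1.11 for Il12b, 3.06 for Il23a and -1.47 for Il1b. Among chemokines it was 2.96 for Cxcl1, 0.32 for Ccl3, -0.36 for Ccl5 and -0.34 for Cxcl10, of which the calls of Ccl3, Ccl5 and Cxcl10 were lost in 10, 14 and 15 of 23 alternative settings, the replicate block included. In the interferon group it was 0.60 for Irf7, 0.42 for Isg15, 0.88 for Rsad2 and 2.67 for Tgtp1, whose KO libraries held 5, 6 and 0 counts. The calls of Isg15 and Ifnb1 were lost in 4 and 5 of the 23 settings, single KO libraries left out among them. Ifnb1 had a fitted difference of 4.40, which depends on the prior count because its KO libraries were all at 0. With LPS it was at 118 ± 27 in KOL and 149 ± 12.7 in WTL (SD, n = 3), and in WT without LPS its 3 libraries held 2, 4 and 5 counts.

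Among maturation genes the difference was 0.38 for Cd40, a call lost in 5 of 23 settings. It was 0.48 for Cd86, 0.85 for Ccr7 and 0.74 for H2-Aa, and 1.97 for Cx3cr1, which fell in WT. For the enzymes it was -2.02 for Nos2 and 1.32 for Ptgs2. The largest values above 0 by the rule for named genes also included 2.75 for Perp and 2.42 for Phlda3. The largest below 0 were -5.17 for Lhx2, which was at the floor in WT, -3.55 for Chst3, -3.18 for Pdgfrb, -2.90 for Chst1 and -2.62 for Clstn1. Pdgfrb also stood on the list of stromal cell markers, and the other 5 markers of that list reached at most 0.49 TPM in any KO or KOL library.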

How the results depend on the processing

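Counts over all genes moved with limma on TPM, which changes unit, test and filter together, and with no fold cutoff. With TPM at a pseudocount of 0.1 or 1, 1195 or 932 genes were higher in KOL, and 3202 or 2178 lower. Those higher in both genotypes were 761 or 593, and those lower in both 2217 at a pseudocount of 0.1. The share of higher among all calls was 53.7% with counts and 27.2% or 30.0% with TPM, whose median gene moved by -0.45 or -0.38. Without a fold cutoff 4704 were higher and 4752 lower in KOL, with 3490 and 3391 in both genotypes. DESeq2 on all 12 libraries gave 2327 higher and 1797 lower. The correction for transcript length gave 2153 higher and 1680 lower, with the difference of responses above 0 for 1490 genes and below 0 for 1219. Leaving out 1 library at a time gave 2087 to 2207 higher and 1720 to 2057 lower. Of 1188 values for the 66 list counts under alternative settings, 125 were classed as moved. Without KOL replicate 2, falls went from 1 to 2 for the citric acid cycle and glycolysis and from 6 to 8 for homeostatic receptors. Falls went from 0 to 1 for Nrf2 and integrins, from 2 to 3 for Toll-like and chemokine receptors, and from 2 to 1 for feedback inhibitors. Rises went from 5 to 7 for lineage factors.

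The number of genes whose response differed between genotypes was the least stable. Those above 0 were 216 with glmTreat and 2204 with voom and sample weights. Those below 0 were 143 with glmTreat, 2423 with voom, 487 or 603 with TPM and 709 with a fold of 1.5. Leave-one-out values were 841 to 1756 above and 671 to 2013 below 0. The lowest above 0 was without KO replicate 3 and the lowest below 0 without WT replicate 3, and both highest were without KOL replicate 2. The cause was not tested.

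The response of single genes was steadier. Of 100 named genes, 85 kept their direction and their side of the threshold in all settings tried. Ciita changed sign with TPM (-0.43 and -0.41), with voom (-0.0267) and without KOL replicate 2 (-0.0977, against 0.262 without KOL replicate 3). Cx3cr1 ranged from -0.223 to 0.0356 when 1 library was left out, and changed sign without KO replicate 3 and with the correction for transcript length (0.0204), and Ctcf with that correction (0.11). None of these 3 genes passed in the counts. Egr1, H2-Aa, H2-Eb1, Pfkfb3, Trem1, Nfil3 and Ccne1 lost their call with TPM and Chst1 with the length correction. Lhx2 and Phlda3 gained a call as rises in KO without KOL replicate 2 and with glmTreat, and Phlda3 also with voom and with DESeq2 size factors. Pdgfrb gained one as a fall with TPM at a pseudocount of 0.1, and Atf3, Lhx2, Phlda3 and Pdgfrb passed without a fold cutoff. Of the differences between genotypes, those of Ccl3, Ccl5, Cxcl10, Ifnb1, Isg15 and Cd40 lost their call in 4 or more settings, Il6 with glmTreat and both TPM fits, Il12b with glmTreat and log2(TPM + 1), Cd86 with glmTreat and with a fold of 1.5, Ptgs2 with log2(TPM + 1), and Tnf, Cd14, Irf7, Rsad2, Ccr7 and H2-Aa with glmTreat.

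With the replicate number as a block, 2101 genes were higher and 1823 lower in KOL, and the difference passed above 0 for 1041 and below 0 for 1022, with those of Ccl3, Ccl5 and Cxcl10 no longer called. Same-numbered KO and KOL libraries had correlations of their deviations from the group means of -0.15, -0.03 and -0.04. For WT and WTL libraries these correlations were 0.05, 0.12 and -0.06. The samples were taken to share only a number. With 3 libraries a group and a wider spread in KOL than in KO, small responses and low counts are the least precise.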
